A study of Mus musculus with 2 samples.

Results

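Open chromatin sites that lie over exons of protein-coding genes, away from any transcript start, were described in mouse fetal liver. Such a site was a peak of replicate 1 that overlapped a peak of replicate 2 by at least 1 base, lay more than 1000 bases from every annotated transcript start, and overlapped coding sequence (CDS) or an untranslated region (UTR) of a protein-coding transcript by at least 1 base. There were 938 of these sites, 8.1% of the 11583 shared peaks that lay more than 1000 bases from a start (distal peaks) and part of 30382 shared peaks in all. By position, 656 touched CDS (coding sites), 227 lay in a 3' UTR, 40 held the last base of a transcript (gene-end sites) and 15 lay in a 5' UTR. The other distal peaks were 4632 in introns of protein-coding genes and 6013 in intergenic sequence.

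DNase-seq sequences the DNA ends made where the enzyme DNase I cuts open chromatin. It was run on 2 libraries of liver from embryos 13.5 days old, replicates 1 and 2 of 1 group, made from separate biosamples that share a donor identifier. Both libraries come from strain C57BL/6N,129 and carry, in the labels' words, LCR deletion and HET globin mutation, which do not differ between them, and neither a wild-type nor an untreated group was used here. The sources used here do not give the extent of the deletion, the genotype of each embryo or whether embryos were pooled, and sex was not recorded.

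DNase I cuts where nucleosomes are displaced, which marks promoters, enhancers and insulators. Most distal sites of this kind lie in introns or between genes, but enhancers and CTCF-bound insulators can also lie within exons, where the same bases carry the code of a protein or an RNA regulatory region. A transcription factor that stays on DNA shields it from the enzyme and leaves a footprint, a short protected stretch within the open site. At this stage the liver is a main organ of red cell formation, in which GATA1, TAL1 and KLF1 drive erythroid genes.

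Replicate 1 held 47198 peaks and replicate 2 held 36523, with 123897 and 94430 footprints. Peak values are the authors' signal at each peak, in steps of 0.0123 and 0.0139, so that the median exon site equals 131 and 88 steps. With only 2 libraries of 1 group no test across samples could be made, and every share below has an exact binomial 95% interval that covers counting error only. As a check of the tissue, both libraries had a peak no further than 1000 bases from a start at 7 of 8 erythroid marker genes, against 3 of 6 hepatoblast, 0 of 3 macrophage and 1 of 3 endothelial genes. Because whole liver was used, a site open in few cells cannot be told apart from a site weakly open in many.

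The sequences below are shown because, of the 17 consensus sequences searched, that of CTCF differed most in share from coding exons without a peak and was found most often inside footprints. Each is 30 bases of GRCm38 (mm10) around a CTCF match that lay in a footprint of both libraries, 5' to 3' on the strand of the match, with the match in capitals. CTCF is the zinc finger protein that marks insulators and loop anchors. The 5 highest such sites (Dand5, Frmd8, Ache, Myh7b, Gdf15) are followed by Espn and by Lyl1, which were added after their values were seen.
Dand5, 3' UTR, chr8:84815722-84815751, minus strand: cgcttttagCCACTAGGTGGCaccgcgtcc
Frmd8, 3' UTR, chr19:5850355-5850384, minus strand: cagctgtgaCCAGCAGGGGGCagctgagcc
Ache, CDS, chr5:137290889-137290918, plus strand: gtgggctgtCCCCCAGGTGGCgctggtggc
Myh7b, intron beside the exon, chr2:155620007-155620036, minus strand: ctctcctgcCCACCAGGGGGCccccgagga
Gdf15, CDS, chr8:70629887-70629916, minus strand: gggtagccgCCGGCAGGGGGCgccgaagcg
Espn, intron beside the exon, chr4:152138635-152138664, plus strand: atcgctgggCCGCCAGAGGGCgacagcgtc
Lyl1, 3' UTR, chr8:84704582-84704611, minus strand: ttcccgcctCCAGCAGGGGGCgccgatgag

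A second set shows GATA matches in footprints of both libraries, in capitals, since GATA1 is the main erythroid factor of this family. Prdm2 and the Gm10300 site beside Epb41 were among the 3 highest, and Kcnn4, the calcium-activated potassium channel of red cells, and Nsmce1 were added after their values were seen. Kcnn4 had 12.9 in replicate 1 and 4.64 in replicate 2, an excess of -0.51, and Nsmce1 had 4.13 and 2.76.
Prdm2, CDS, chr4:143162110-143162139, minus strand: aagacaaccccgAGATAGcagctgcgattg
Gm10300, 3' UTR, chr4:132076919-132076948, plus strand: cctggccctgccTGATAAgcctgtgtgcct
Kcnn4, intron beside the exon, chr7:24377193-24377222, minus strand: gcctgcgccccgAGATAAgatgcggaggac
Nsmce1, CDS, chr7:125472140-125472169, minus strand: ctctgtatattgAGATAAagaaaggagtca

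The last set shows NRF1 matches, in capitals, in footprints of both libraries over CDS. NRF1 is a factor of housekeeping promoters that reads CpG-containing DNA. These sites were chosen after their values were seen. Unc13a, a protein of synaptic vesicle release, had 8.11 in replicate 1 and 5.46 in replicate 2, and Apold1 had 6.01 and 3.78. A RefSeq start of another gene model lay within each of these 2 sites.
Sptbn4, CDS, chr7:27361589-27361618, plus strand: cgtcgagctcGCGCTTGCGCagcaggaagc
Trim14, CDS, chr4:46507368-46507397, minus strand: cgatgcacgcGCGCCTGCGCctgtcgccgg
Unc13a, CDS, chr8:71629418-71629447, minus strand: gggcggtgccGCGCCTGCGCcctagcgcgc
Apold1, CDS, chr6:134983676-134983705, plus strand: gccaagtgctGCGCCTGCGCgaagtggccc

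A CTCF match lay in the central 200 bases of 238 exon sites, 25.4% (22.6 to 28.3%), against 21.8% of all shared distal peaks. The share was 23.9% (20.7 to 27.4%) at coding sites and 30.8% (24.9 to 37.3%) at 3' UTR sites. Distal intronic peaks had 19.1% (17.9 to 20.2%) and intergenic peaks 23.3% (22.3 to 24.4%). The 3' UTR interval lies above both of these, and the coding interval lies above the intronic share but spans the intergenic one. A match within footprints of both libraries was found at 154 exon sites, 16.4%, against 10.4% of intronic and 12.3% of intergenic peaks.

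Coding exons in general seldom hold this sequence. Over 140199 windows of 200 bases centred on distal coding exons without a peak in either library, 0.326% had a CTCF match. These windows are poorer in G and C, with a median of 48.5% against 58.5% at coding sites. Among windows of 55 to 65% GC the share was 0.714% of 33068, against 23.1% (18.7 to 27.9%) of the 347 coding sites in that range. The difference in CTCF matches was present within that range of composition too.

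The CTCF match of a coding site often lay outside the code itself. Of 98 coding sites with a match in footprints of both libraries, all 98 had the same match in both, and at 32 of them it lay wholly over CDS. At 59 the match touched no CDS or UTR of a protein-coding transcript, and at the other 7 it lay partly over CDS or over UTR. At 3' UTR sites all 49 such matches lay over annotated UTR or CDS. Ache and Gdf15 are examples with the match over CDS, and Myh7b and Espn have it beside the exon.

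GATA matches (the letters GATA with A or T before and A or G after them, on either strand) showed another pattern. They lay in the central 200 bases of 27.2% of exon sites (24.4 to 30.2%), against 35.5% of all shared distal peaks. Coding sites had 26.8% (23.5 to 30.4%) and 3' UTR sites 30.4% (24.5 to 36.8%), while distal intronic peaks had 42.6% (41.1 to 44.0%). Intergenic peaks had 31.3% (30.2 to 32.5%), an interval that overlaps those of coding and 3' UTR sites. Coding exon windows without a peak held a match almost as often as coding sites, at 25.3%. Within 55 to 65% GC the shares were 23.9% (19.5 to 28.8%) of coding sites and 11.5% of exon windows. The near equality over all exons was thus not seen when composition was held to that range.

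The longer consensus in which a GATA match follows part of an E-box at a short spacing, known from sites bound by GATA1 with TAL1, is a subset of the GATA matches. It was found at 6.61% (5.10 to 8.39%) of all exon sites, against 7.36% of all shared distal peaks, which lies within that interval. Coding sites had 7.77% (5.84 to 10.1%) and 3' UTR sites 4.41% (2.13 to 7.95%). Exon windows without a peak had it in 1.08%. Within 55 to 65% GC the shares were 7.2% (4.72 to 10.5%) of coding sites and 0.369% of exon windows. The interval at intronic peaks, 9.19 to 10.9%, overlaps that at coding sites but lies above those of all exon sites and of 3' UTR sites. Intergenic peaks had 5.42% (4.86 to 6.02%), an interval that overlaps all 3 of these. Only 14 exon sites held a GATA match inside footprints of both libraries, 1.49%, against 2.5% of intronic peaks, so the footprint calls rarely covered GATA sequence in any class.

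**Figure D1:**
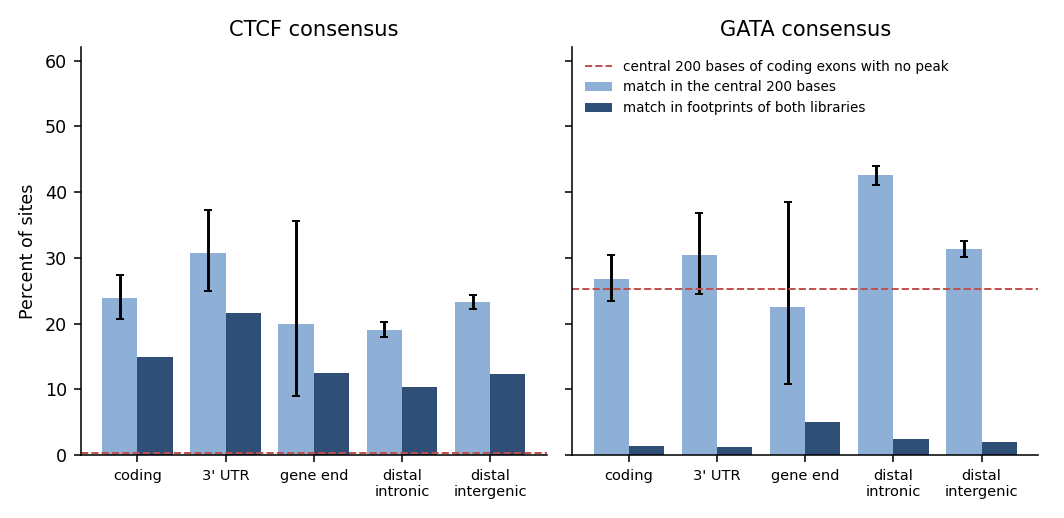
Percent of sites with a CTCF consensus match (left) or a GATA match (right), by class. Light bars count matches in the central 200 bases, with exact binomial 95% intervals, dark bars count matches within footprints of both libraries, and the dashed line gives the share of coding exon windows without a peak. CTCF matches stand at 23.9% of coding and 30.8% of 3' UTR sites over a line at 0.326%, while GATA matches at coding sites, 26.8%, stand near their line at 25.3%.

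Of the other 14 consensus sequences searched, SP and NRF1 were more frequent at coding sites than at intronic peaks, with intervals that do not overlap. AP-1 and NFE2 were less frequent there, also with intervals that do not overlap. The SP sequence CCCCGCCC was found at 8.08% of coding sites (6.11 to 10.4%), 4.79% of intronic peaks (4.20 to 5.45%), 5.64% of all shared distal peaks and 0.711% of exon windows without a peak. Intergenic peaks had SP at 5.99% (5.4 to 6.62%), an interval that overlaps that of coding sites. Within 55 to 65% GC the SP shares were 6.92% (4.48 to 10.1%) of coding sites and 1.9% of exon windows. NRF1 matches were found at 3.05% of coding sites (1.87 to 4.67%), 0.453% of intronic peaks (0.281 to 0.692%) and 0.872% of all shared distal peaks, and at 0 of 227 3' UTR sites. Intergenic peaks had NRF1 at 0.998% (0.762 to 1.28%). Within 55 to 65% GC the NRF1 shares were 1.73% (0.637 to 3.73%) of coding sites and 0.212% of exon windows. At 9 coding sites the NRF1 match lay within footprints of both libraries, and at 8 of these it lay wholly over CDS. The KLF sequence CCNCACCC was not of this kind: it was found at 13.0% of coding sites (10.5 to 15.8%), against 13.1% of all shared distal peaks, and at 693 of 4632 intronic peaks, a share above that of coding sites but within their interval. Exon windows without a peak had it in 4.78%, and within 55 to 65% GC the shares were 14.7% (11.1 to 18.9%) of coding sites and 10.6% of windows. The HNF4 sequence CAAAGTCCA was found at 0 of 938 exon sites (0 to 0.392%), against 0.216% of intronic, 0.333% of intergenic and 0.259% of all shared distal peaks. The interval includes each of these shares. AP-1 matches were found at 3.51% of coding sites (2.24 to 5.21%), 7.47% of intronic peaks (6.73 to 8.26%) and 6.94% of all shared distal peaks. The 3' UTR share of AP-1 was 7.05% (4.08 to 11.2%). NFE2 matches were found at 0.305% of coding sites (0.0369 to 1.1%), 1.99% of intronic peaks (1.6 to 2.43%) and 1.6% of all shared distal peaks. The 3' UTR share of NFE2 was 2.64% (0.976 to 5.66%).

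Exon sites were GC-rich, with a median of 57.5% in the central 200 bases against 53.5% of both intronic and intergenic peaks. A site was counted as CpG-rich above 55% GC and an observed over expected CpG ratio of 0.65. That held for 189 exon sites, 20.1% (17.6 to 22.9%), against 7.41% of all shared distal peaks. The share was 24.4% at coding sites, 22.5% at gene-end sites and 5.29% (2.76 to 9.05%) at 3' UTR sites. Intronic peaks had 3.52% (3.01 to 4.09%), so the interval of coding sites lies above that of intronic peaks and that of 3' UTR sites overlaps it.

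Relative to their extent, exons held more distal peaks than introns. Peak middles numbered 14.3 per Mb of distal CDS (12.8 to 15.8, Poisson interval of 357 middles) and 9.31 per Mb of distal 3' UTR (8.25 to 10.5). Distal introns had 5.53 per Mb and intergenic sequence 3.9 per Mb. Coding sequence lies nearer to starts, so the rate was also taken by distance. Between 1000 and 2500 bases from a start, CDS had 23.94 per Mb (20.03 to 28.39) against 11.26 in introns, and 3' UTR had 11.03. Beyond 10000 bases CDS had 8.79 per Mb (6.91 to 11.02), 3' UTR 5.79 (4.42 to 7.46) and introns 3.77 (3.61 to 3.94). CDS thus stood above introns in each distance range, while the 3' UTR interval spanned the intronic rate in the nearest one. How much of the difference comes from GC content or from how readily reads map to exons was not tested.

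Exon sites lay close to starts. The median distance was 3967 bases over all exon sites, 3646.5 at coding and 5292 at 3' UTR sites, against 7103 at intronic and 9441 at intergenic peaks. Of coding sites 36.3% lay within 2500 bases, against 22.3% of intronic peaks. The RefSeq annotation of the same assembly (GRCm38.p6) lists starts that GENCODE vM21 does not. One of these lay within 1000 bases of 79 exon sites, 8.42% (6.72 to 10.4%), close to the 7.49% of all shared distal peaks. By class they were 62 coding, 10 5' UTR, 7 3' UTR and 0 gene-end sites.

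Most coding sites crossed an exon edge. Of 656, 222 lay wholly in exons and 434, 66.2%, crossed a splice site of the host transcript. The exon was internal at 421, last at 196, first at 24 and the sole exon at 15. The base where the deposited false discovery rate was lowest, taken as the centre of cutting, lay in an exon at 391 coding sites in replicate 1 and 398 in replicate 2. These are 59.6% and 60.7% of coding sites. At the others the strongest cutting lay outside the host transcript's exons and a flank of the peak touched CDS. Of 227 3' UTR sites, 225 lay wholly in exons. Gene-end sites had that point in an exon at 18 and 20 of 40.

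The middle exon site had a value of 1.61 in replicate 1 and 1.22 in replicate 2. Coding sites had medians of 1.56 and 1.19, 3' UTR sites 1.73 and 1.28, and gene-end sites 1.63 and 1.25. Intronic peaks had 1.37 and 1.03 and intergenic peaks 1.41 and 1.07. The 15 sites in 5' UTR went the other way, with lower medians of 1.08 and 0.970. Over all classes, the median exon site was higher than the median intronic peak by 0.23 and 0.25 on the log2 scale (mean 0.24 ± 0.012, SD, n = 2). It stood below shared peaks near a start, which had 2.95 and 2.23. The ranges of the classes overlap throughout, from 0.246 to 19.8 in replicate 1 at coding sites and from 0.197 to 32.5 at intronic peaks. The log2 difference was smaller, 0.085, when only peaks at or above the library medians were kept. The count of exon sites was 488 with the shorter lists and 1806 in replicate 1 alone with no sharing asked.

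**Figure D2:**
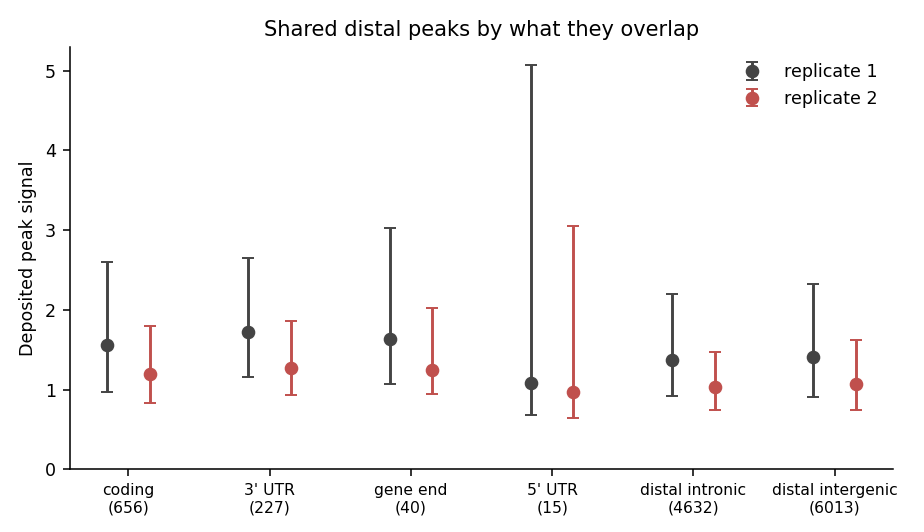
Median deposited signal (points) with lower and upper quartiles (bars) of shared distal peaks, by class and library, with the number of peaks under each class. Medians of coding, 3' UTR and gene-end sites (1.56 to 1.73 in replicate 1) lie above those of intronic and intergenic peaks (1.37 and 1.41), with quartile ranges that overlap. The median of 5' UTR sites (1.08 in replicate 1) lies below them.

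Footprints gave a smaller contrast. A footprint was present in both libraries at 701 exon sites, 74.7% (71.8 to 77.5%), against 73.0% of all shared distal peaks, and the interval includes that share. When exon sites were cut by mean rank into 4 equal sets, footprints in both libraries were found at 98.3% of the 235 highest sites and 38.7% of the 235 lowest. The highest set also had a greater share of CpG-rich sites, 29.4% against 17.4% in the lowest, and lay nearer to starts, at a median of 3086 against 5806 bases. CTCF matches were at 26.4% and 17.0%, and GATA matches at 27.7% and 25.5%.

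The highest coding site lay in exon 2 of Angptl6, which encodes a secreted angiopoietin-like protein, at chr9:20878301-20878360. Its value was 19.8 in replicate 1 and 8.64 in replicate 2. It lay 1367 bases from the nearest GENCODE start and 239 from a RefSeq start of the same gene. Next came exon 33 of 36 of Sptbn4, a beta spectrin of the membrane skeleton, at chr7:27361461-27361660 with 18.1 and 6.11. This site holds the NRF1 match printed above over CDS and an SP match in the adjoining intron, both in footprints of each library. Sptbn4 had 2 further sites, over exons 14 and 17, at 1.54 and 1.12 in replicate 1 and 1.19 and 0.846 in replicate 2.

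Prdm2, a PR-domain zinc finger protein, followed with 13.3 and 6.47 at exon 6, where RefSeq places a start. Trim14, a TRIM family protein of innate immunity, had 11.2 and 6.04 partly over its last exon, 12186 bases from the nearest start in either annotation. Exonic bases were 94 of 200 at the highest Sptbn4 site, 62 of 240 at Prdm2 and 87 of 200 at Trim14. At each of these the lowest false discovery rate lay outside the host transcript's exons in both libraries. Myh7b, a myosin heavy chain gene that hosts a microRNA, had 13.8 and 5.06 at exon 4 and 7.10 and 4.27 at exon 12, the second with the CTCF match shown. Exonic bases were 76 of 200 at the site of exon 4 and 31 of 200 at that of exon 12. Hist1h1d, a linker histone, had 3 sites between 2.98 and 9.01 in replicate 1 and between 1.97 and 5.24 in replicate 2, and a RefSeq start of this gene lay within the highest of them and within 829 bases of the others. The nonagouti gene, a pigment switch, had 8.69 and 5.86 in its last exon. A coding site in Gm11168 had 8.90 and 9.07, but every 32-base word in it recurs elsewhere in the genome.

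The highest 3' UTR site stood apart from all others. It lay in Lars2, the mitochondrial leucyl-tRNA synthetase, at chr9:123461901-123462100, with 42.4 in replicate 1 and 86.9 in replicate 2. Of its 32-base words 61.5% recur elsewhere on the nuclear chromosomes, the only sequence searched. Dand5, a secreted Nodal antagonist, had 9.24 and 5.43, and Frmd8, a FERM-domain protein, 8.88 and 5.53, both at CTCF matches. Slc16a5, a monocarboxylate transporter, had 8.08 and 4.85 at a site 1427 bases from the start of Armc7. Serp2, where a RefSeq start of another gene model lay 164 bases away, had 6.30 and 4.44, Akt1s1, a regulator of the mTOR complex, 5.62 and 4.42, and Wwc1, a Hippo pathway protein, 5.89 and 3.40. Lyl1, a basic helix-loop-helix factor of blood progenitors, had 5.75 and 3.58 at its CTCF match.

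The highest gene-end site held the end of Gm10300 and lay 1480 bases from a start of Epb41, protein 4.1 of the red cell membrane. Its values were 11.4 and 5.52, and it held the GATA with E-box consensus in footprints of both libraries. Vgf, a neuropeptide precursor, had 10.5 and 5.23, and Lrrc24 had 7.33 and 4.70. Gm21887 had 6.38 and 2.59 with all of its words recurring. Dtnb had 3.55 and 2.38, Npm3 3.98 and 2.04, both with a CTCF match in footprints, Ola1 5.02 and 1.98, and Prr15l 4.14 and 2.01. At the 5' UTR, Pura had 8.17 and 4.94, Rap2b, a small GTPase, 5.87 and 4.94, and Sf3b5, a spliceosome subunit, 7.13 and 3.83. RefSeq starts lay 593 bases from the Pura site and within the Rap2b and Sf3b5 sites. Of these highest sites by class, those in Lars2 and Gm11168 were higher in replicate 2 and the others lower.

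**Figure D3:**
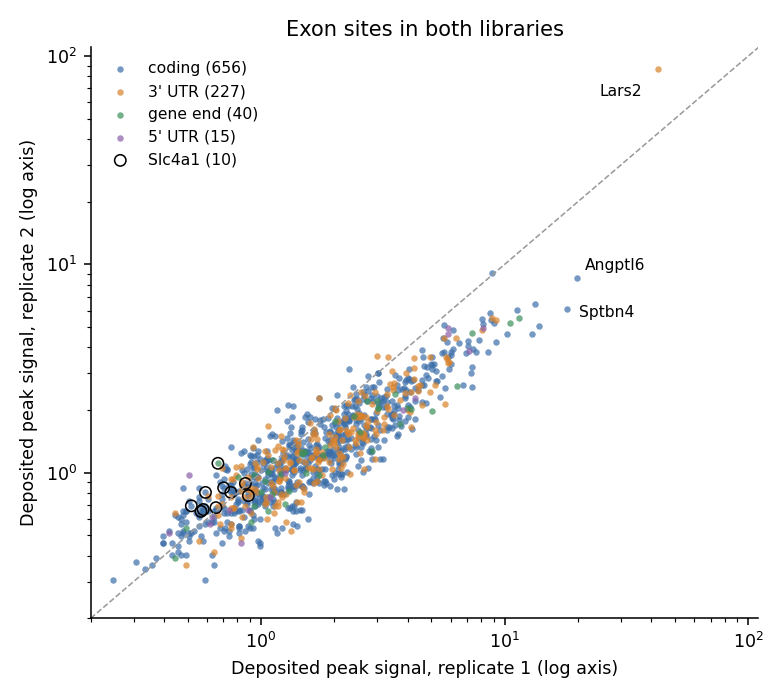
Deposited peak signal of each exon site in replicate 1 (horizontal, log axis) and replicate 2 (vertical, log axis), coloured by class, with the dashed line marking equal values and open circles the 10 sites of Slc4a1. High sites such as Angptl6 (19.8 and 8.64) and Sptbn4 (18.1 and 6.11) fall below the line, and Lars2 (42.4 and 86.9) lies above it.

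Values of exon sites followed each other across libraries, with a Spearman correlation of 0.888 over 858 sites whose peaks matched one to one. This is across sites, which share both libraries and are not replicates. The median log2 ratio of replicate 2 to replicate 1 was -0.42, the same as over all shared distal peaks, and it fell with height, from -0.15 in the 235 lowest exon sites to -0.65 in the 235 highest. The sources used here do not say how values compare between the libraries. Each ratio is therefore also given as an excess, the log2 ratio less a running median taken over the 500 peaks next lower and next higher in mean value.

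By this measure, sites with a GATA match and sites with a CTCF match differed. The 211 exon sites with a GATA match and no CTCF match had medians of 1.74 in replicate 1 and 1.16 in replicate 2, and a median excess of -0.17. Of these, 146 lay below the running median, 69.2% (62.5 to 75.4%), against 55.8% of all shared distal peaks. The 238 sites with a CTCF match had medians of 1.71 and 1.32, a median excess of 0.08, and 41.6% (35.3 to 48.1%) below. The 167 CpG-rich sites without a CTCF match resembled the latter, with 40.1% below, and the 335 sites with none of these had 50.4%. The raw log2 ratios, without any running median, also put GATA sites lowest, at -0.60 against -0.37 for CTCF and -0.35 for CpG-rich sites.

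The same split was present outside exons: 67.5% of intronic and 66.9% of intergenic peaks with a GATA match lay below the running median, against 48.0% and 48.6% of those with a CTCF match. It is therefore not particular to exons. One library stands on each side of this ratio, so a difference between embryos, between cell mixtures and between library preparations cannot be told apart.

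**Figure D4:**
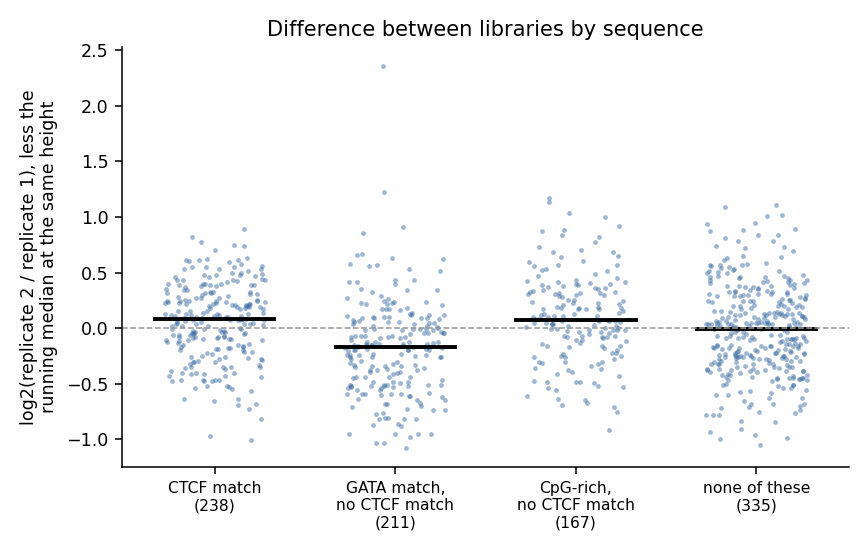
Log2 ratio of replicate 2 to replicate 1 less the running median at the same height, for each exon site, by sequence feature; black lines are medians, and a site may be both GATA-matched and CpG-rich. GATA-matched sites have a median of -0.17 and CTCF-matched sites 0.08, with wide overlap.

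The exon sites furthest above the running median, after Lars2 (excess 2.35), were in Maml3, H2-Ab1, Trib2 and Tsc22d4. Maml3, a Notch coactivator, had 1.16 and 2.00, H2-Ab1, an MHC class II chain, 0.752 and 1.33, Trib2, a pseudokinase, 0.505 and 0.970, and Tsc22d4 1.29 and 2.11. All 4 lay between 1025 and 1475 bases from a start, thus only just beyond the distance limit. The Tsc22d4 site abuts another site of that gene, which had 2.24 in replicate 1 and the same 2.11 in replicate 2. The excess was 1.10 at the first and 0.40 at the second, so it may depend on how replicate 1 was cut into peaks there. The 5 furthest below were in Odf2, Atf6, Synj1, Sidt1 and Dscam. Odf2, a centriole protein, had 1.56 and 0.596, and Synj1, a phosphoinositide phosphatase, had 2.19 and 0.832. Sidt1, a transporter-like membrane protein, had 1.40 and 0.554, and these 3 all held the GATA with E-box consensus. Atf6, a sensor of unfolded protein, had 1.33 and 0.527, and Dscam, a cell adhesion protein, had 0.986 and 0.444 with a CTCF match.

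Host genes of exon sites numbered 838 of 21938 protein-coding genes, 3.82%. Of 16 erythroid regulators, 3 held a site. In Klf1, the main KLF factor of red cells, a site lay wholly in the CDS of exon 2 of 3 at chr8:84903081-84903300, 1153 bases from the start, with 8.75 in replicate 1, 5.38 in replicate 2 and 5 and 6 footprints. Tal1, the partner of GATA1 and LMO2, had 2.24 and 1.43 wholly in the CDS of exon 3. Lyl1 had the 3' UTR site above and a coding site at exon 4 of 1.96 and 2.04. Only 41 of the 207 bases of this coding site were exonic. Its lowest false discovery rate lay outside the host transcript's exons in both libraries, and it met no peak of either shorter list.

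Of 25 genes for the red cell membrane, heme and iron, 5 held a site. Kel, a blood group protein, had 2.39 and 1.90 at exon 4, where RefSeq has a start. Ank1, the ankyrin of the red cell membrane, had 1.37 and 1.01 at exon 21 of 44. Only 48 of 240 bases of the Kel site and 20 of 196 of the Ank1 site were exonic. At both, the lowest false discovery rate lay outside the host transcript's exons in each library. Alad, an enzyme of heme synthesis, had 1.82 and 1.04 at exon 2, and 1.10 and 0.998 at exon 6 with 5 exonic bases. Alas2, the first enzyme of erythroid heme synthesis, had 1.36 and 0.568 at exon 9 with a GATA match, an excess of -0.95. Of the 360 bases of this site 74 were exonic. In the other lists, Spi1, the myeloid and B-cell factor PU.1, had 4.20 and 2.79 in its last exon, and Apoa1, a liver apolipoprotein, 1.38 and 1.11. Kmt2a, a histone methyltransferase, had 1.15 and 0.832 at a CTCF match, and Dnmt3a, a DNA methyltransferase, 0.924 and 1.05, with a RefSeq start 426 bases away. None of the 12 globin, 14 endothelial and mesenchymal or 12 housekeeping genes held one, while 1 of 22 hepatocyte, 1 of 11 macrophage and 2 of 22 chromatin genes did.

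Slc4a1, the band 3 anion exchanger of the red cell membrane, held more exon sites than any other gene. Its 10 sites, which join into 8 where they overlap, touched 11 of 20 exons along a gene of 16457 bases on chromosome 11. All were low: 0.518 to 0.887 in replicate 1 and 0.652 to 1.11 in replicate 2. In replicate 1 the lowest was at chr11:102352524-102352603 over exon 17 and the highest at chr11:102358901-102359140 over exon 6. In replicate 2 the lowest was at chr11:102351421-102351607 over exon 18 and the highest at the gene end. In replicate 2, 9 of 10 were higher than in replicate 1, and all 10 lay above the running median, by 0.08 to 1.01. Since some of the 10 overlap, these are not 10 separate measurements. The largest excess was at the gene end, at chr11:102348801-102349043, with 0.665 (0.5 to 0.868) in replicate 1 and 1.11 (0.879 to 1.38) in replicate 2. Those are Poisson 95% intervals that take 1 step as 1 read, which is an assumption.

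These peaks were not limited to exons, since 4 further shared peaks of similar height lay in introns of Slc4a1 beyond 1000 bases from a start. The peak at the gene's first base had 6.91 in replicate 1 and 3.37 in replicate 2, and a peak that ended 1580 bases from it had 9.49 and 3.44. Both were lower in replicate 2, but both stood far above the exon sites, and ratios fell with height. Low peaks within 1000 bases of a start went either way. Those with 0.936 and 0.579 in replicate 1 had 1.11 and 0.735 in replicate 2, while those with 1.06 and 0.887 both had 0.679. Of the intronic peaks, 1 was lower in replicate 2, with 0.863 and 0.652, and the others were higher. Footprints were few at the exon sites: 7 of 10 had none in replicate 1 and 5 of 10 had none in replicate 2. Of the 15 sites in the list of red cell membrane, heme and iron genes, 10 were those of Slc4a1.

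**Figure D5:**
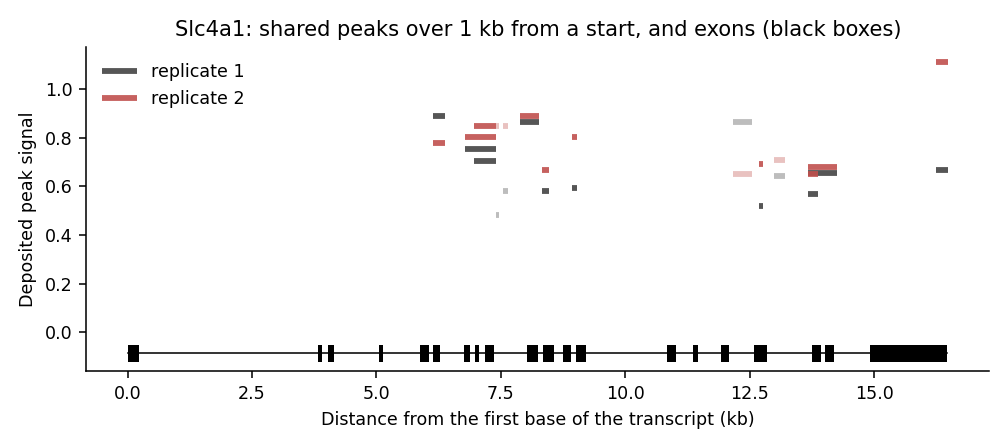
Slc4a1 drawn from the first base of its transcript (kb), with exons as black boxes and each shared peak beyond 1000 bases from a start as a bar at its deposited signal in replicate 1 (grey) and replicate 2 (red); pale bars are peaks that touch no exon. The exon sites lie between 0.518 and 1.11, spread from the middle to the end of the gene, and most are higher in replicate 2.

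Of the 838 host genes 757 held 1 site, 71 held 2 and 10 held 3 or more. Irs1, an adaptor of the insulin receptor, had 4 low sites within its long coding exon, 0.357 to 0.628 in replicate 1 and 0.360 to 0.610 in replicate 2. Ormdl3, a regulator of sphingolipid synthesis, had 4, of which the highest, at exon 3, had 3.65 and 2.48 and the GATA with E-box consensus. C1qtnf4 had 3 sites of 0.850 to 1.08 and 1.28 to 1.497, and Lor, the skin protein loricrin, 3 of 0.444 to 0.801 and 0.624 to 0.735. In both genes some of these peaks overlap. Tsc22d4 had 3 sites of 1.29 to 3.31 and 2.02 to 2.11, and Shf 3 of 0.875 to 2.99 and 1.04 to 2.22. The 3 sites of Mid1 consist wholly of recurring words. Counted over the nuclear chromosomes only, more than 50% of words recurred at 14 exon sites, 1.49%, and no word recurred at 92.1%.

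At the distance limit, the nearest sites kept were in Bmpr2, at the first base beyond it, with 0.690 and 0.790, and in Tlnrd1, at 1005 bases with 2.29 and 1.79. RefSeq starts lay 90 and 566 bases from them. The nearest exon peaks left out were in Gadd45a, at 1000 bases with 0.998 and 1.08, and in Trim8, at 999 bases with 2.88 and 1.77.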

How the data were processed

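The data are DNase-seq of 2 libraries of embryonic mouse liver. Per the labels and file headers, the authors aligned each library to mm10 and deposited, per library and without pooling, 2 peak lists (a longer and a shorter one), a list of footprints and the false discovery rate of cutting by position. The sources used here do not give the aligner, the peak caller, their versions or thresholds. The deposited peak values are the authors' signal at each peak. The deposited footprint score is 0.01 throughout, so positions alone were used. The false discovery rate, deposited as an adjusted p-value (q-value type) for stretches under 0.05, served to place the point of strongest cutting.

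The longer lists were used with GENCODE vM21 in Python 3.11.15 (pandas 2.3.3, numpy 2.4.6, scipy 1.17.1). Gene ends were assigned first, then CDS, 3' UTR and 5' UTR, and the host transcript was the one with the most overlapping bases. The 17 consensus sequences, those of 10 or more letters given by name, were searched on both strands in the central 200 bases and in footprints widened by 5 bases. The NFE2 consensus contains the AP-1 sequence TGANTCA. Recurring sequence was counted in 32-base words over the nuclear chromosomes of the assembly. Copies in the mitochondrial genome or in unplaced sequence were not counted. The scripts were tested on simulated data. Sequences and additional starts come from RefSeq (GRCm38.p6).

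The named sites were the 8 highest by mean rank in the coding, 3' UTR and gene-end classes, the 3 highest in 5' UTR, and those of 135 genes in 8 lists. They also include the 5 highest and 5 lowest excess ratios, the 5 highest with CTCF and the 3 highest with GATA in footprints of both libraries, genes with 3 or more sites, and the 2 peaks on each side of the distance limit. The exon sites, lists and names were chosen with earlier results of these data known. Samples form 1 group, so no comparison between groups was made. Alternatives covered the peak list, overlap, distance, annotation, height and each library alone.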

Additional observations from a re-analysis of the deposited data

How the results depend on the processing

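Values as reported are 938 exon sites (656 coding, 227 in 3' UTR, 40 at gene ends), 8.1% of shared distal peaks, a log2 difference of 0.242 to intronic peaks, footprints at 74.7% and CTCF matches at 25.4%. With the shorter lists they were 488 sites (333, 128 and 18), 8.38%, 91.0% and 28.9%. With peaks at or above the library medians only, they were 435 sites (294, 115 and 20), 9.99%, a log2 difference of 0.085, 94.5% and 28.7%. With 50% of both peaks overlapping, the share of distal peaks was 7.9%, the log2 difference 0.279, footprints 80.7% and CTCF 29.7%. A limit of 500 bases gave 9.54%, 0.2, 69.4% and 21.4%. A limit of 2500 bases gave 418 coding sites, 6.71%, 0.265 and CTCF 28.2%. With at least 50% of the peak in exons there were 384 coding and 23 gene-end sites, 5.57%, a log2 difference of 0.174 and CTCF 21.9%. The share of distal peaks was 7.99% with replicate 2 as the base, 7.93% with starts of protein-coding genes only, 8.06% with basic transcripts, and 8.14% without regions of mainly recurring words. Gene-end sites numbered 82 when an end within 100 bases counted. Each library alone gave 1174 to 1806 sites (828 to 1273 coding, 281 to 434 in 3' UTR, 47 to 66 at gene ends), 7.84 to 7.89%, a log2 difference of 0.163 to 0.248, footprints at 72.0 to 78.1% and CTCF at 17.1 to 20.4%. The shorter and higher lists hold fewer peaks, and a single library more, by construction; otherwise the cause was not tested. The median log2 ratio of GATA-matched less CTCF-matched sites was -0.228, and -0.305 to -0.186 over 10 settings chosen after seeing the data, as was the setting without recurring words. No paired analysis was possible because the 2 libraries form 1 group. The median exon site equals 131 and 88 steps of the deposited value. If 1 step is 1 read, which is an assumption, counting error limits single ratios at low sites such as those of Slc4a1.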
